A study of Mus musculus with 13 samples.

Results

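Co-stimulatory and checkpoint ligands are surface proteins by which an antigen-presenting cell tells a T cell to respond or to stop. The 6 genes described here were Cd40, Cd80, Cd86, Icosl, Cd274 and Pdcd1lg2, and they were followed in mouse bone marrow derived macrophages through H3K27ac, an acetylation mark of histone H3 found at active promoters and enhancers. The authors' deposited table lists 40691 H3K27ac regions on mm10. A region was taken when it overlapped the annotated body of a listed gene or, failing that, when the gene was the nearest protein-coding gene within 100 kb. This gave 17 regions, and every member region overlapped a gene body. Cd86 had 7 regions, Pdcd1lg2 had 4, Cd40, Cd80 and Cd274 had 2 each and Icosl had 1, with 1 region shared by Cd274 and Pdcd1lg2. Member regions were 498 to 48478 bp wide with a median of 9516 bp, and 6 of the 17 were 20 kb or wider, against 4.4% of all regions.

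The macrophages carried the genotype IL10-/-RAG2-/- on strain 129S6/SvEvTac, in every group, so they could not make their own IL-10 and came from animals without mature B and T cells. Bone marrow precursors were grown for 5 days in M-CSF conditioned medium, and the series' design text speaks of 3 independent macrophage pools. There were 4 groups of 3 libraries: untreated cells; cells given LPS, the endotoxin ligand of TLR4, at 1 ng/mL for 195 min; cells given LPS and IL-10, both at 1 ng/mL, for 195 min (continuous IL-10); and cells exposed to LPS for 195 min of which only the final 30 min included IL-10 (late addition), for which the labels give no separate IL-10 dose. Both IL-10 groups are compared with the same LPS libraries. The libraries held 5149730 to 26922552 reads in regions, with a median of 18 to 89 reads per region, and 19.7 to 29.9% of regions in a library stood at 1 read, the lowest value in the table.

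CD40 receives CD40 ligand from helper T cells and licenses the presenting cell through TRAF proteins and NF-kB. CD80 and CD86 bind CD28, which activates T cells, and CTLA-4, which restrains them, and ICOS ligand, the product of Icosl, binds ICOS on activated T cells. PD-L1, from Cd274, and PD-L2, from Pdcd1lg2, bind PD-1 and dampen T cells. In macrophages LPS is known to raise CD40 and CD86, and IL-10, acting through STAT3, is known to oppose much of the LPS response.

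RefSeq promoter sequences of GRCm38.p6, the assembly of mm10, matched 4 of the 6 genes. The reference is not of the 129S6 strain. The 250 bases before the annotated start are shown for Icosl, whose log2 differences from the same-numbered LPS library lay close together in both IL-10 groups, and for the PD-1 ligand genes Cd274 and Pdcd1lg2, which share a region. For each of the 3 the start lies inside a member region, and capitals mark CpG pairs.
Pdcd1lg2: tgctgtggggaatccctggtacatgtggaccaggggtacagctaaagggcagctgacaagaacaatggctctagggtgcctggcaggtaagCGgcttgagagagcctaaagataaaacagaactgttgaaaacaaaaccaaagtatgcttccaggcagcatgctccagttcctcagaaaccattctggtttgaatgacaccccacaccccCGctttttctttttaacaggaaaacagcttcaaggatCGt
Cd274: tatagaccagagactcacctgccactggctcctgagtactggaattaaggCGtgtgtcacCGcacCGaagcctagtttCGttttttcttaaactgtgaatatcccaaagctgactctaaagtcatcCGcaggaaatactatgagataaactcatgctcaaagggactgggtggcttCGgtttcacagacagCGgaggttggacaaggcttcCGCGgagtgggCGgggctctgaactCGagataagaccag
Icosl: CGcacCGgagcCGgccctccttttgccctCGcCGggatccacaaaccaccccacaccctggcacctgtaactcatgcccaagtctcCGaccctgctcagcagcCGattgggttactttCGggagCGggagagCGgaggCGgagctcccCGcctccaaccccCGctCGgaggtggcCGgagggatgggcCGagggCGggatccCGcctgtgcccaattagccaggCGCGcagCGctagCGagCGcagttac

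These windows are chr19:29410669-29410918 for Pdcd1lg2, chr19:29367188-29367437 for Cd274 and chr10:78069118-78069367 for Icosl, each on the plus strand. The Pdcd1lg2 window held 3 CpG pairs, the Cd274 window 11 and the Icosl window 23; the Cd80 window, not printed, held 3, and the median of 32841 RefSeq promoters was 6. On both strands, neither the STAT-type motif TTCNNNGAA (in 7.02% of the 32841 windows) nor the IRF-type motif of GAAA, any 2 bases and GAAA again (2.98%) was found in the 4 windows. A match to the NF-kB consensus, which 3.9% of the windows hold, was found in the Pdcd1lg2 window alone of the 4, as GGGGAATCCC at position -244 from the annotated start. A match is a description of letters and not a measured site.

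Differences are given on the log2(value + 1) scale from limma fitted over all 12 libraries, with p-values adjusted over all 13480 genes or 36621 regions tested, and a change is called where the adjusted p is under 0.05. All 6 genes and 16 of the 17 regions passed the filter on low signal. Gene values are sums over a gene's regions in the authors' scaled signal, and values per kb divide these by the summed region width.

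In untreated macrophages the signal per kb ran from Cd80 (82.7 ± 14.1, SD, n = 3) and Pdcd1lg2 (74.4 ± 7) through Cd274 (25.1 ± 5.82), Icosl (20.9 ± 12.2) and Cd86 (10.9 ± 1.71) to Cd40 (6.68 ± 1.8). Cd80 and Pdcd1lg2 lay within their spread of each other, as did Cd274, Icosl and Cd86 with the neighbour in that order. The values are of regions and not of gene bodies alone. In untreated cells 61.6% of the Cd80 signal lay in a region that also overlaps Adprh. For Pdcd1lg2, 77.4% lay in a region that runs 32983 bp past the gene. After LPS, Cd40 led with 139 ± 47.3 per kb. The other 5 genes, from Pdcd1lg2 at 68.9 ± 28.2 to Cd86 at 45.1 ± 30.4, did not separate from each other beyond their SDs. Under continuous IL-10 the order was Pdcd1lg2 (147 ± 24), Cd274 (74.2 ± 16.9), Cd80 (54.1 ± 4.15), Cd40 (40.4 ± 4.65), Icosl (13.2 ± 5.9) and Cd86 (8.63 ± 4.45). With late IL-10 it was Cd40 (133 ± 35.8), Pdcd1lg2 (126 ± 28.3), Cd274 (94.7 ± 24.9), Cd80 (47.6 ± 4.24), Cd86 (40.1 ± 23.6) and Icosl (24.5 ± 9.57). Cd40 was thus lowest in untreated cells, and in both the LPS and the late IL-10 libraries it had the highest mean per kb.

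**Figure D1:**
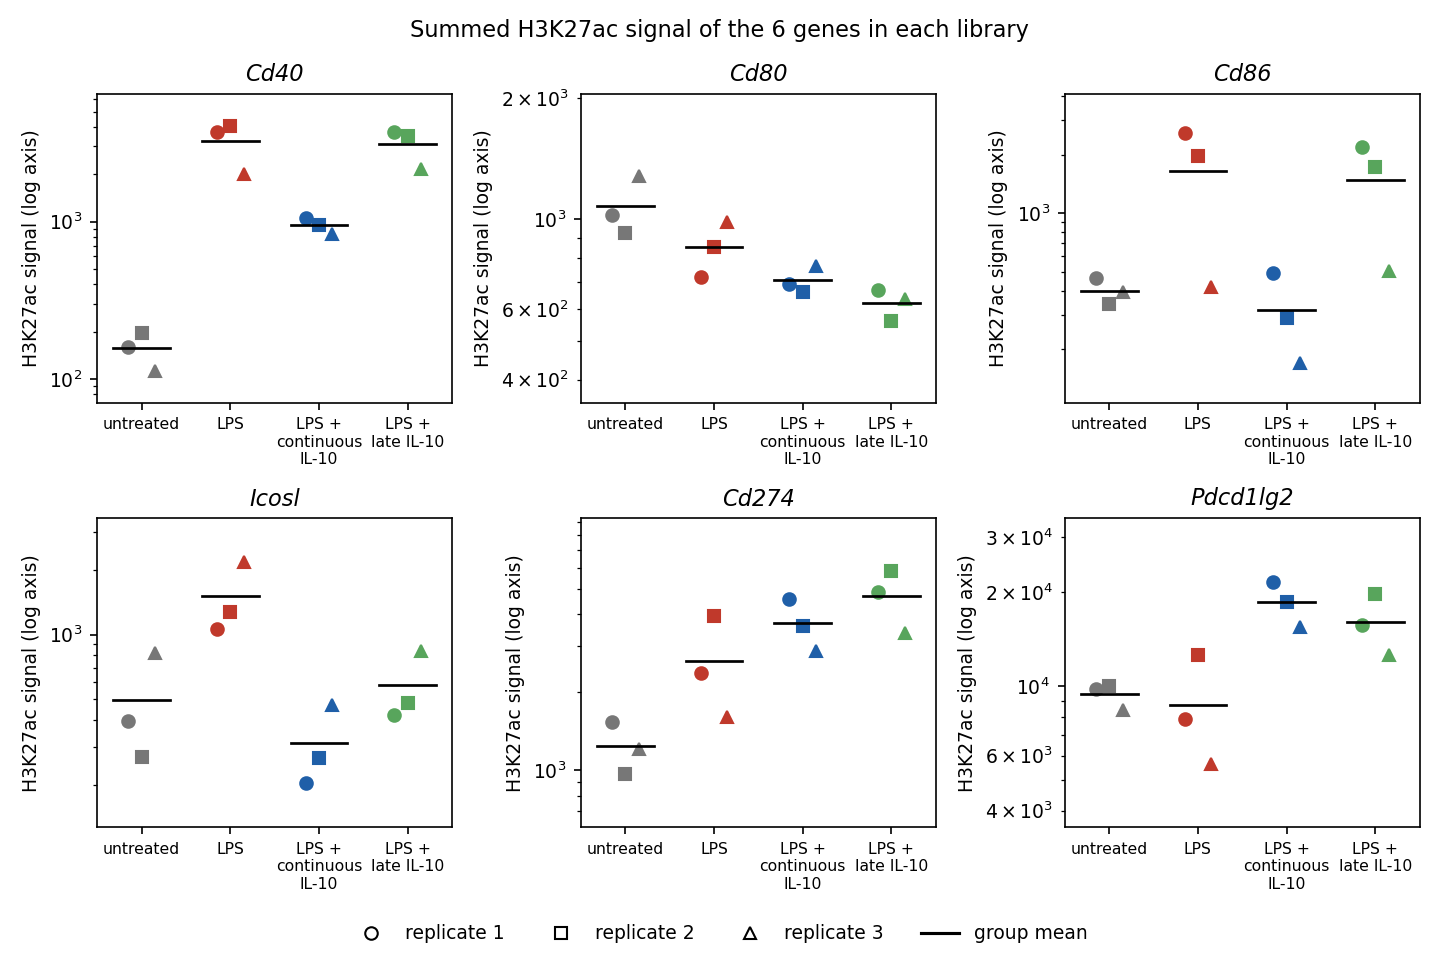
Summed H3K27ac signal (log axis) of each gene in each of the 12 libraries, with points for the libraries, symbols for the replicate number and bars for the group mean. Cd40 rose with LPS from 113 to 197 in untreated libraries to between 2000.1 and 4072, while Pdcd1lg2 was higher in every continuous IL-10 library (15498 to 21581) than in every LPS library (5657 to 12629).

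LPS against untreated cells asks which of these genes gain or lose acetylation on endotoxin exposure. Cd40, Icosl and Cd274 gained signal. Cd86 was clearly higher in 2 of 3 replicates, and Cd80 and Pdcd1lg2 gave no called change at the level of the gene. Of the 6 genes 3 were called higher and 0 lower, against a background of 14.2% higher and 13.3% lower, 27.5% together, among all genes tested; the members' median change was 1.34 against -0.11 over all genes. With the replicate number as a block 4 genes were called, where 43.5% of all genes are. Among the 16 tested regions 4 were called higher and 1 lower, where the background is 16.5% and 17.9%, 34.5% together, and with the block 7 were called, where 49.1% of all regions are. The share of members called in this comparison is thus read beside a high background.

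Cd40 stood at 159.8, 197 and 113 in the untreated libraries and at 3715, 4072 and 2000.1 after LPS. The groups did not overlap, and the change was 4.34 (SE 0.33, adjusted p = 3.01e-06), a ratio of means of 20.9. Nearly all of it came from 1 region, chr2:165040428-165063340, which overlaps 7727 bp at the low end of the gene and held 99.5% of the Cd40 signal in untreated cells and 99.7% after LPS. The other Cd40 region, of 498 bp at chr2:165069937-165070434 inside the gene, stood at 1 read in all 3 untreated libraries and rose above 3 reads in the replicate 3 libraries of the treated groups, reaching 38 reads after LPS; its change of 1.59 was not called (adjusted p = 0.306).

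Icosl has a single region, chr10:78067302-78091086, that spans the whole gene. Its signal was 399, 271 and 824 untreated and 1059, 1275 and 2170.2 after LPS, with no overlap. The change was 1.68 (SE 0.47, adjusted p = 0.0168). Replicate 3 was the highest in each group, and between same-numbered libraries the log2 differences were 1.41, 2.23 and 1.40. Without untreated replicate 1 or 2 the adjusted p was 0.0619 or 0.0804.

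Cd86 stood at 465, 340.4 and 393 untreated and at 2576, 1973 and 416 after LPS. LPS replicates 1 and 2 were far above the untreated libraries and LPS replicate 3 lay among them. Over all libraries the change of 1.69 (SE 0.67) was not called (adjusted p = 0.08), while with the replicate number as a block it was called (adjusted p = 0.00291), and without LPS replicate 3 the change was 2.51 (adjusted p = 0.00345). LPS replicate 3 was also the deepest of its group, with 20884182 reads in regions against 5149730 and 7242281; the part of depth in this was not tested.

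Within Cd86, 1 of the 6 tested regions was called, and differences between regions were not tested. The called gain was at chr16:36595959-36600668, inside the gene body, which stood at 0.707, 21.4 and 0.419 untreated (1 read in replicates 1 and 3) and at 565, 524 and 70 after LPS. Its change was 6.19 (SE 1.36, adjusted p = 0.00337), and here LPS replicate 3 also lay above every untreated library. The region over the high end of the gene, chr16:36662199-36675855, went from 228, 74.4 and 104 to 1238, 1097 and 193. Those groups overlapped, and the change of 2.4 was called with the block and not without it (adjusted p = 0.0170 and 0.145). The region chr16:36626042-36633871 in the middle of the gene had similar means in all 4 groups, 185 ± 39.5 untreated, 226 ± 108 after LPS, 219.8 ± 71.9 with continuous and 197 ± 53.6 with late IL-10. Its LPS change was 0.19 with an interval of -0.81 to 1.19. The 3 smaller tested regions between chr16:36636002 and chr16:36657884 had LPS means of 25.8 to 117 and gave no called change, and the region at chr16:36608434-36609694 had at most 51.2 in any library and did not pass the filter.

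**Figure D2:**
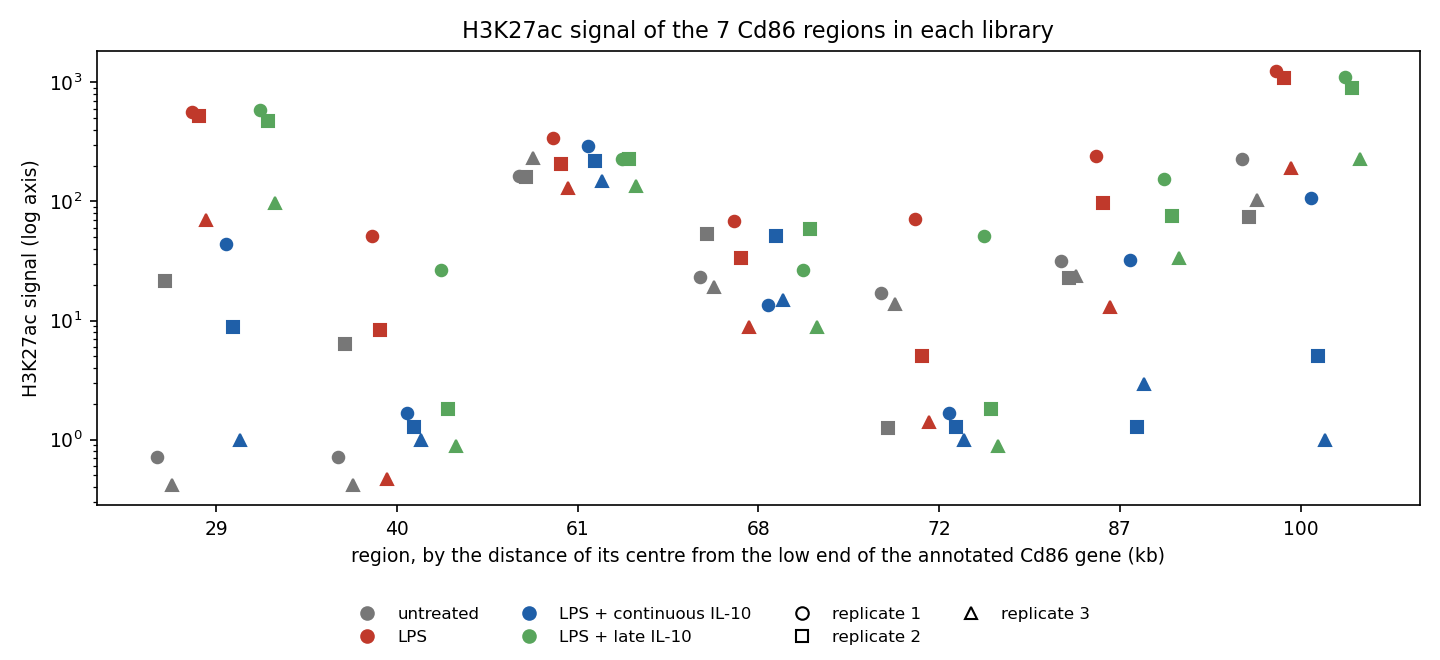
H3K27ac signal (log axis) of each Cd86 region in each library, ordered along the gene, with colours for groups and symbols for replicate numbers. The region at 36595959 and the region at 36662199 are high in LPS and late IL-10 replicates 1 and 2 and low with continuous IL-10, whereas the region at 36626042 stays between 129 and 342 in every library.

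Cd274 stood at 1540.4, 967 and 1213 untreated and at 2373, 3909 and 1598 after LPS. All LPS libraries were above the untreated ones, with replicate 3 by the smallest margin. The change was 1.01 (SE 0.33, adjusted p = 0.0376). The call was lost without untreated replicate 2 (adjusted p = 0.137), untreated replicate 3 (0.0812), LPS replicate 1 (0.0845) or LPS replicate 2 (0.181), and with edgeR on recovered reads (0.0685), median centring (0.134) or the 2 groups fitted alone (0.0700). The region that holds the annotated start, chr19:29360251-29373893, which also overlaps Plgrkt, went from 739, 659 and 794 to 1623, 2543 and 807; its change of 1.03 was called with the block (adjusted p = 0.0108) and not without it (0.0712). The region shared with Pdcd1lg2 changed by 0.99 (adjusted p = 0.0479); its groups overlapped, and leaving out either of untreated replicates 2 and 3, or of LPS replicates 1 and 2, took the adjusted p to 0.0553 to 0.196.

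Pdcd1lg2 was the gene with the greatest summed region width, 127 kb in 4 regions, which reach past both ends of its body. It stood at 9810.3, 10037 and 8402 untreated and at 7859, 12629 and 5657 after LPS. The LPS libraries spanned the untreated ones on both sides, and the change of -0.19 had an interval of -0.77 to 0.40 (adjusted p = 0.676); edgeR gave a change of 0.0012 and quantile normalization -0.53 (adjusted p = 0.0256).

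Cd80 stood at 1027, 924 and 1282 untreated and at 720.1, 855 and 986 after LPS, a change of -0.33 that was not called (adjusted p = 0.365). Its 2 regions are given separately, and the difference between them was not tested. The region over the annotated start, chr16:38451223-38460738, which also overlaps Adprh, had means of 674 ± 202 and 721 ± 107. The other, chr16:38474620-38478144 within the gene, fell from 375, 440.0 and 397 to 110.2, 126 and 163. That fall of 1.61 (SE 0.39, adjusted p = 0.00628) was the 1 called loss among the member regions, and leaving out any of the 6 libraries kept the adjusted p at 0.0278 or less. The share of the Cd80 signal in this region went from 38.4 ± 8.48% untreated to 15.5 ± 0.907% after LPS.

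Continuous IL-10 with LPS against LPS alone asks what IL-10 given together with LPS does to the endotoxin state. The ligands parted: Cd40 and Icosl fell, Pdcd1lg2 rose, and Cd80 and Cd274 gave no called change. Cd86 was not called, and each of its values was lower than in the same-numbered LPS library. Of the 6 genes 1 was called higher and 2 lower, against backgrounds of 2.59% and 3.17%, 5.76% together; the median change was -0.995 against 0.03 over all genes. With the block 4 genes were called, where 17.6% of all genes are. Among 16 regions 3 were called higher and 3 lower, where the background is 3.28% and 3.24%, 6.52% together, and with the block 9 were called, where 16.4% of all regions are.

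**Figure D3:**
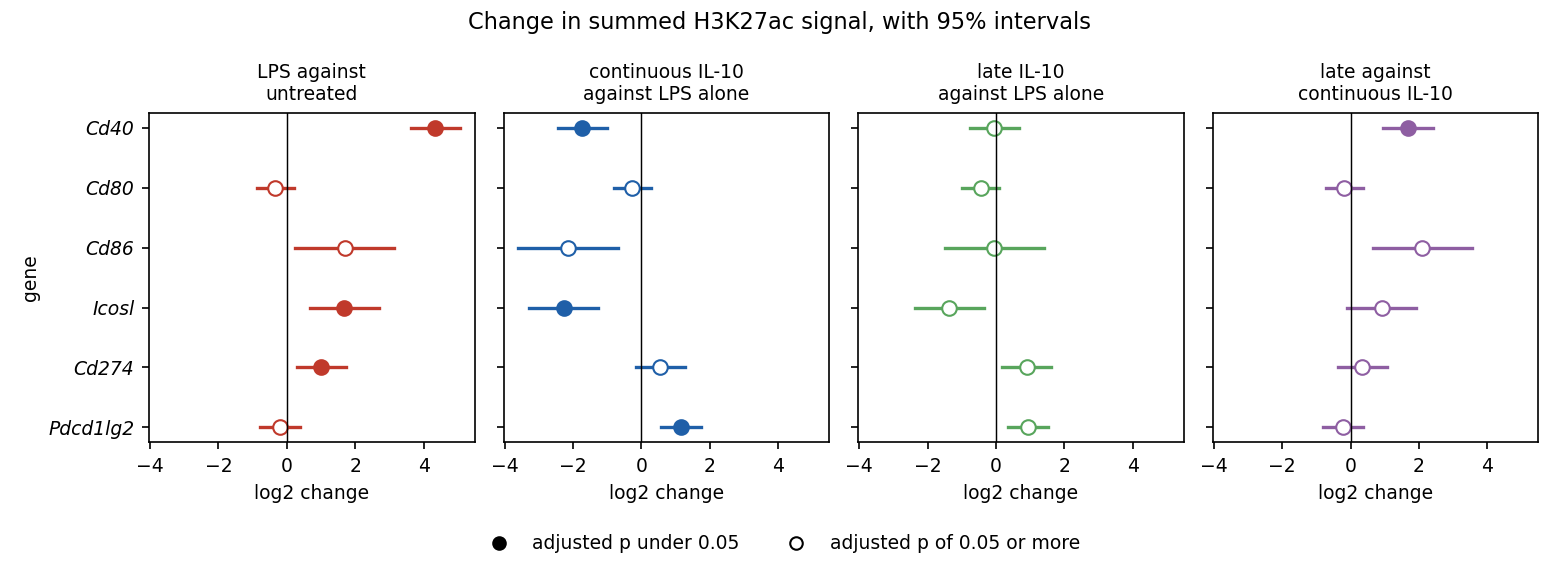
Log2 change of the summed signal of each gene with its 95% interval in 4 comparisons, with filled points where the adjusted p is under 0.05. In the comparison of continuous IL-10 with LPS alone, Icosl (-2.27), Cd86 (-2.15) and Cd40 (-1.72) lie to the left and Pdcd1lg2 (1.16) to the right, and Cd86 is an open point.

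Cd40 under continuous IL-10 stood at 1052, 951 and 835, below every LPS library. The change was -1.72 (SE 0.33, adjusted p = 0.00988), a ratio of means of 0.290. This was still above untreated cells by 2.62 (adjusted p = 0.000178). The call against LPS was lost without LPS replicate 1 (adjusted p = 0.0557) or LPS replicate 2 (0.0597), with edgeR (0.0553) and with median centring (0.0968), at changes of -1.53 to -1.89.

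Icosl under continuous IL-10 stood at 204, 267 and 472. Each value was below every LPS library, and the change of -2.27 (SE 0.47, adjusted p = 0.0140) is a ratio of means of 0.209. Between same-numbered libraries the log2 differences were close to each other, -2.37, -2.25 and -2.20. Against untreated cells the change was -0.60 with an interval of -1.61 to 0.42, so a difference from the untreated level was not detectable (adjusted p = 0.480). Without continuous IL-10 replicate 1 or 2 the adjusted p against LPS was 0.0562 or 0.0605.

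Cd86 under continuous IL-10 stood at 492, 288 and 169.5, with replicates 2 and 3 below the untreated range. The change from LPS was -2.15 (SE 0.67), not called over all libraries (adjusted p = 0.0817) and called with the replicate block (0.00185) and without LPS replicate 3 (-2.96, adjusted p = 0.00514). At chr16:36662199-36675855, over the high end of the gene, the signal was 108, 5.08 and 0.986, of which the last is 1 read. Each of these was below every LPS library, and the change was -5.87 (SE 1.22, adjusted p = 0.0132). That call was lost without LPS replicate 1 (0.0619), LPS replicate 2 (0.0594) or continuous replicate 2 (0.0575), with edgeR (0.0629) and with the 2 groups fitted alone (0.0623). At chr16:36595959-36600668 the signal was 43.8, 8.89 and 0.986, and the change of -4.85 gave adjusted p = 0.0504, or 0.00212 with the block. The region chr16:36653904-36657884 changed by -3.38 (adjusted p = 0.115, with the block 0.0138). The region in the middle of the gene changed by 0.02, with an interval of -0.98 to 1.02. It held 74.2 ± 14.1% of the Cd86 signal under continuous IL-10 and 18.3 ± 11.2% after LPS alone.

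Macrophage cultures can hold dendritic cells, which also carry these ligands. All 10 dendritic cell markers searched had regions, and their summed signal ran from 5861 to 14597 after LPS, from 4639 to 7097 with continuous IL-10, from 6041 to 13400 with late IL-10 and from 7953 to 9339 in untreated cells; Dpp4 was at the floor in all continuous IL-10 libraries. Of the 9 tested, Batf3 and Zbtb46 were called lower with continuous IL-10 than with LPS and 0 higher, where 3.17% and 2.59% of all genes are. Each was called in 2 of the 6 fits that leave out 1 library. T cell markers had regions for 5 of 8. Those summed to 667 to 853 after LPS, 396 to 579 with continuous IL-10, 916 to 1192 with late IL-10 and 442 to 623 untreated. The LPS, continuous and late groups thus did not overlap. Between continuous IL-10 and LPS 0 of the 5 were called in limma or with the block, where 5.76% and 17.6% of all genes are. Both lists ranged lower with continuous IL-10 than after LPS, where Cd40, Cd86 and Icosl were also lower, but the dendritic cell sums overlapped. With late IL-10 the T cell sums were above those after LPS, while Cd40 and Cd86 changed little and Icosl was lower. The part of such cells in the gene values was not tested. The 10 macrophage markers summed to between 39205 and 69694 in every library.

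Pdcd1lg2 stood at 21581, 18573 and 15498 under continuous IL-10. The lowest of these was above the highest LPS library (12629), and the change was 1.16 (SE 0.27, adjusted p = 0.0251), a ratio of means of 2.13. It was also above untreated cells by 0.97 (adjusted p = 0.0249). The call against LPS was lost without LPS replicate 1 (adjusted p = 0.1), continuous replicate 1 (0.0979) or continuous replicate 2 (0.0898), with edgeR (0.242), with median centring (0.188) and with the 2 groups fitted alone (0.0994). The changes in these fits were 1.02 to 1.21. Neutrophil markers were also higher in sum with continuous IL-10 than after LPS. Regions were found for 5 of 8, and Ly6g was at the floor in every group. The sums were 2596 to 3008 with continuous IL-10, 1916 to 2467 after LPS, 1380 to 2213 with late IL-10 and 1283 to 2727 untreated. With late IL-10, where Pdcd1lg2 changed by 0.93 from LPS, these sums thus ranged lower than after LPS. Of the 4 tested, 1 was called higher with continuous IL-10 than with LPS, Elane (adjusted p = 0.0198), where 2.59% of all genes are. Elane was also higher with late IL-10 than with LPS (0.0201), where 3.19% are. Lower with late than with continuous IL-10 was 1, Ltf (0.0497), where 0.668% are. The Elane calls were kept in 2 of 6 fits without 1 library and the Ltf call in 1 of 6. Their part in the Pdcd1lg2 values was not tested.

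The gain was seen in several regions assigned to Pdcd1lg2, and a region value does not tell how much of it lies outside the gene body. The region chr19:29412676-29433907 went from 876, 1586 and 647 to 2993, 2349 and 2089 (change 1.34, SE 0.35, adjusted p = 0.0365). The next, chr19:29434890-29455890, went from 315, 425 and 181 to 877, 716 and 781 (1.44, SE 0.34, adjusted p = 0.0254). The widest, chr19:29457433-29505910, overlaps the end of the gene by 15495 of its 48478 bp and runs 32983 bp past it. It holds 70.2 ± 1.4% of the summed Pdcd1lg2 signal here. Its values went from 5919, 9251 and 4038 to 15030.3, 13331 and 10713 (1.09, SE 0.27, adjusted p = 0.0311). In each of the 3 regions the groups did not overlap, and between same-numbered libraries replicate 2 gave the smallest difference. Each of these calls was lost on leaving out LPS replicate 1 or continuous replicate 1, 2 or 3, and those at 29412676 and 29457433 also without LPS replicate 3, with adjusted p of 0.0502 to 0.124. EdgeR on recovered reads gave adjusted p of 0.0890 and 0.0965 for these 2, and the 2 groups fitted alone gave 0.104 to 0.112 for the 3.

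The stretch between the PD-1 ligand genes was also higher in each continuous IL-10 library than in the same-numbered LPS library. The shared region, chr19:29375454-29411268, covers the later part of Cd274 and the start of Pdcd1lg2, whose promoter letters are shown above. It overlaps the Pdcd1lg2 body by 350 of its 35815 bp. Its values were 749.7, 1366 and 791 after LPS and 2681, 2177 and 1914 with continuous IL-10. The groups did not overlap. The change of 1.26 (SE 0.36) gave adjusted p = 0.0550, or 0.0137 with the block. Over the same comparison the Cd274 start region changed by -0.13. The shared region held 38.7 ± 9.52% of the Cd274 signal after LPS and 62.1 ± 3.94% with continuous IL-10, and the Cd274 sum itself, at 4539, 3593 and 2877, changed by 0.55 (adjusted p = 0.443). When regions that overlap several genes are left out, no region remains for Cd274, so its values cannot be told apart from those of Plgrkt and Pdcd1lg2.

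**Figure D4:**
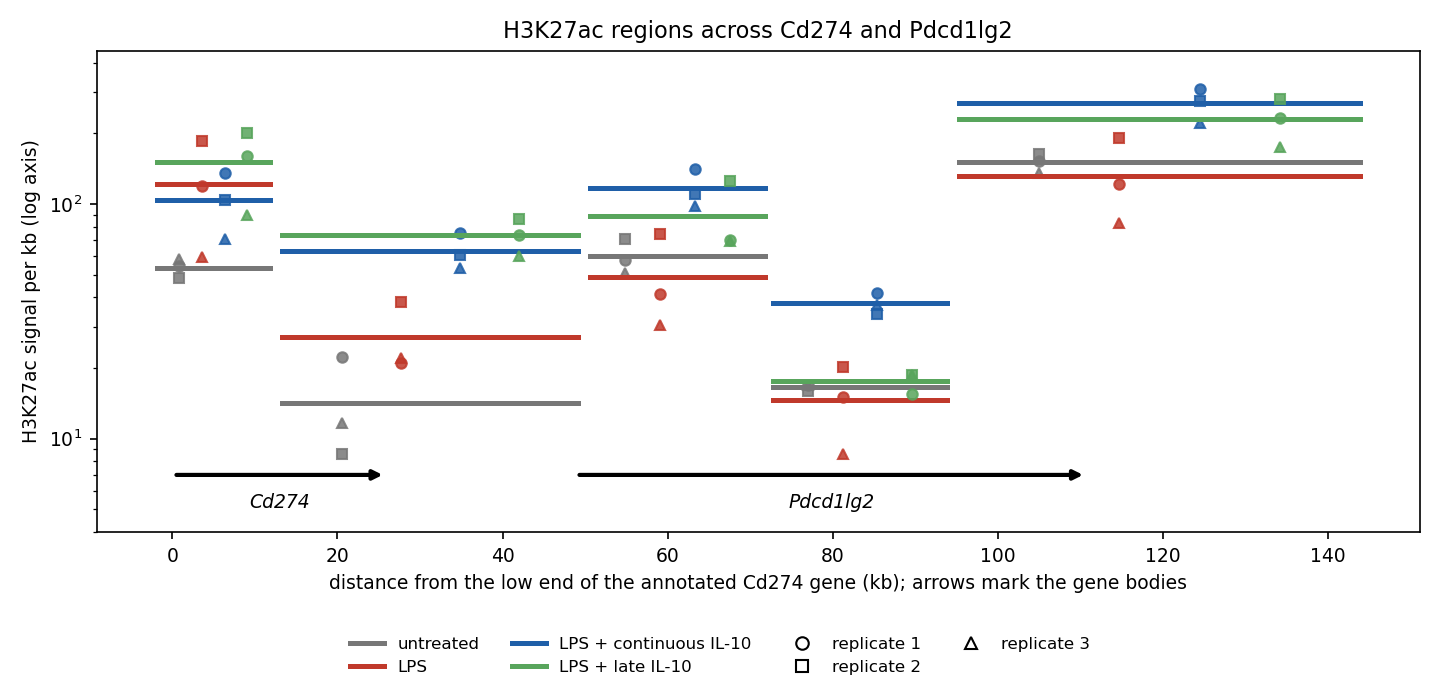
H3K27ac signal per kb (log axis) of the 5 regions of Cd274 and Pdcd1lg2, drawn at their extent, with bars for group means, symbols for libraries and arrows for the gene bodies. From the shared region rightwards the continuous IL-10 bars lie above the LPS bars (63 against 27.1 per kb in the shared region), and at the Cd274 start they do not (104 against 121).

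Cd80 under continuous IL-10 stood at 691, 661 and 766, a change of -0.27 from LPS (adjusted p = 0.704). Its inner region stayed low, at 167, 108 and 137.

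Late IL-10 with LPS against LPS alone asks how far the last 30 min of IL-10 alter acetylation that LPS has already set. In limma 0 of 6 genes were called, where 3.45% of all genes are (3.19% higher and 0.26% lower); 3 had an unadjusted p under 0.05 and edgeR called 1, Icosl. With the replicate block 3 were called, Icosl lower and Cd274 and Pdcd1lg2 higher, where 9.73% of all genes are. Among the 16 regions 1 was called higher and 0 lower (background 3.14% and 0.396%, 3.53% together), and 4 were called with the block (8.09% of all regions).

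Icosl stood at 423, 480.2 and 842 with late IL-10, below every LPS library. The change was -1.36 (SE 0.47, adjusted p = 0.177, with the block 0.00200, in edgeR 0.0480 and with median centring 0.0343). Between same-numbered libraries the log2 differences were -1.32, -1.41 and -1.36. These values lay between those of LPS alone and continuous IL-10 in each replicate number, and the change against untreated cells was 0.31 with an interval of -0.70 to 1.32.

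Cd40 with late IL-10 stood at 3682, 3492 and 2147, within the range of the LPS libraries. The change was -0.04 with an interval of -0.76 to 0.67. Cd86 stood at 2177, 1736 and 504, with replicate 3 again low (11083204 reads in regions against 6635223 and 7315345), and changed by -0.05 with an interval of -1.50 to 1.40. With median centring both changes turned slightly positive, 0.07 for Cd40 and 0.06 for Cd86.

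Pdcd1lg2 stood at 15753, 19696 and 12552 and changed by 0.93 (SE 0.27, adjusted p = 0.0929, with the block 0.00487); without LPS replicate 2 the change was 1.24 (adjusted p = 0.0133). Cd274 stood at 4834, 5832 and 3383 and changed by 0.90 (SE 0.33, adjusted p = 0.228, with the block 0.0360). For both genes each late IL-10 library was above the same-numbered LPS library, but the groups overlapped and a pairing by number is not established. The shared region was the called one: 2642, 3094 and 2155 against 749.7, 1366 and 791, a change of 1.48 (SE 0.36, adjusted p = 0.0376) and a ratio of means of 2.71. It lost the call without LPS replicate 1 (0.138), LPS replicate 3 (0.0869), late replicate 1 (0.135) or late replicate 2 (0.154), and with edgeR (0.0732), quantile normalization (0.0614) or the 2 groups fitted alone (0.11).

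The Pdcd1lg2 regions are given side by side for late IL-10, and differences between regions were not tested. The region chr19:29434890-29455890, which had gained with continuous IL-10, stood at 324, 392.4 and 393, close to the untreated values of 356, 337 and 355, and changed by 0.35 from LPS. The flanking regions at 29412676 and 29457433 changed by 0.90 (adjusted p = 0.248, with the block 0.0356) and 0.85 (0.133, with the block 0.00804). Cd80 stood at 669, 561 and 634, a change of -0.45 (adjusted p = 0.566).

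**Figure D5:**
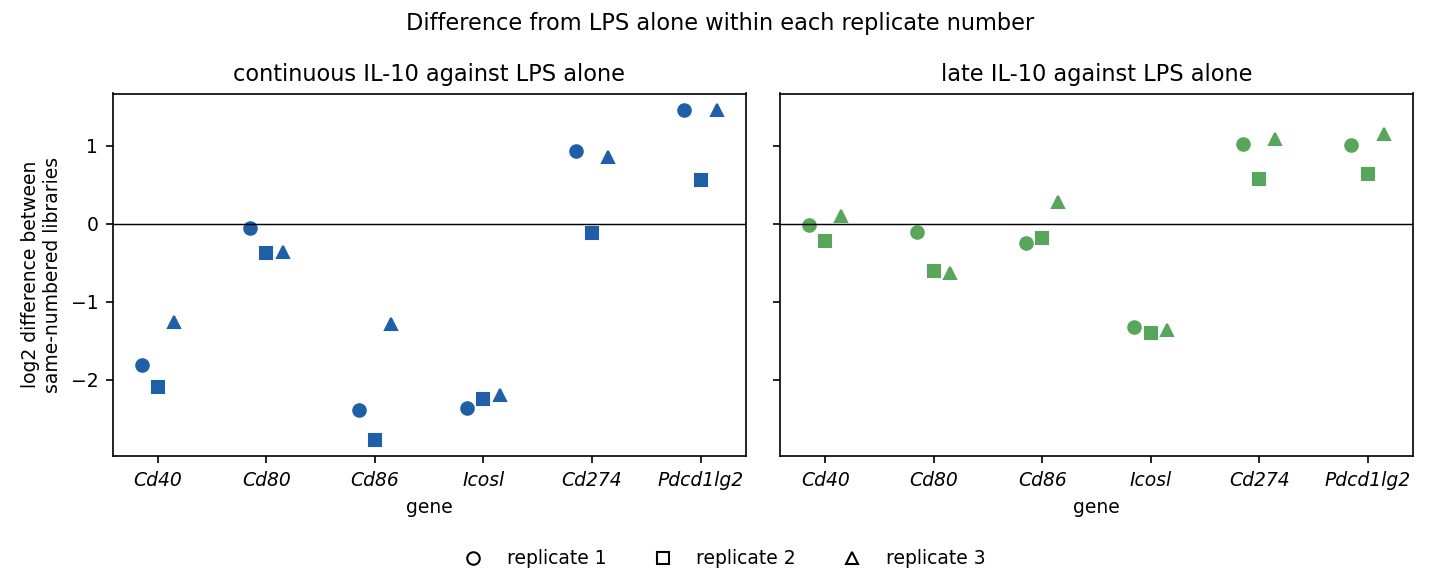
Log2 difference of the summed signal from the same-numbered LPS library, for each gene and replicate number, with continuous IL-10 on the left and late IL-10 on the right. The Icosl points lie close together at -2.37 to -2.20 on the left and -1.41 to -1.32 on the right, while Cd40 is at -2.10 to -1.26 on the left and near 0 on the right.

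Late against continuous IL-10 compares the IL-10 schedules directly. The groups differ both in when IL-10 was added and in how long it was present (30 against 195 min), and the late dose is not given separately, so these cannot be told apart. Of the 6 genes 1, Cd40, was called higher with late IL-10 and 0 lower, where 1.88% and 0.668% of all genes are, 2.55% together. Cd40 did not overlap between the groups and differed by 1.68 (SE 0.33, adjusted p = 0.0242). Leaving out continuous replicate 1, 2 or 3 or late replicate 1 or 2 took that adjusted p to 0.0539 to 0.153 at differences of 1.54 to 1.76, and edgeR gave 0.0878, median centring 0.103, quantile normalization 0.0795 and the 2 groups fitted alone 0.0624. Among the regions 2 were called higher and 0 lower (background 1.86% and 0.852%, 2.71% together), the main Cd40 region with 1.68 (adjusted p = 0.0240, and 0.0540 to 0.135 without any of the same 5 libraries) and the Cd86 region chr16:36662199-36675855 with 5.80 (SE 1.22, adjusted p = 0.0271).

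In that Cd86 region the late IL-10 libraries stood at 1102, 892 and 228, against 108, 5.08 and 0.986 with continuous IL-10. The Cd86 sum differed by 2.10 (adjusted p = 0.116), and without late replicate 3 by 2.75 (0.0247). The region's own call was lost without continuous replicate 2 (0.108) or 3 (0.0894) or late replicate 1 (0.142) or 2 (0.111), with edgeR (0.101) and with the 2 groups fitted alone (0.0732). Icosl differed by 0.91 with an interval of -0.10 to 1.92 (adjusted p = 0.346), and Pdcd1lg2 by -0.22 with an interval of -0.81 to 0.36.

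Against untreated cells, continuous IL-10 left 3 of 6 genes called higher, Cd40, Cd274 and Pdcd1lg2, and 0 lower (background 8.62% and 8.93%, 17.6% together). Cd274 was higher by 1.57 (adjusted p = 0.00558), with each continuous IL-10 library above each untreated one. The Pdcd1lg2 call was lost on leaving out any untreated library or continuous replicate 1 or 2 (adjusted p of 0.0595 to 0.105), with edgeR (0.155) and with median centring (0.163). With late IL-10, Cd40 (4.30, adjusted p = 2.44e-06) and Cd274 (1.91, adjusted p = 0.000878) were higher and Cd80 was lower (background 15.7% and 15.4%, 31.1% together). The Cd80 change was -0.78 (SE 0.25, adjusted p = 0.0285), and it was lost without untreated replicate 1 or 3 or late replicate 1 or 2 (0.0610 to 0.103) and with the 2 groups fitted alone (0.0832). With the block 5 genes were called (47.1% of all genes), Cd86 (adjusted p = 0.00316) and Pdcd1lg2 (0.00462) in addition.

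The surroundings of the genes were read through every region within 100 kb. Of all regions tested, 16.5% were called higher and 17.9% lower with LPS, and 3.28% and 3.24% with continuous IL-10. Next to Icosl, the region chr10:78092230-78166718, assigned to Gatd3a, was like Icosl highest after LPS and next highest with late IL-10, with means of 2475 ± 675 untreated, 13527 ± 1850.2 after LPS, 2702 ± 504 with continuous and 7667 ± 1425 with late IL-10. Its changes were 2.48 with LPS (adjusted p = 1.27e-05), -2.33 with continuous IL-10 (0.000232) and -0.83 with late IL-10 (0.0852). Of the 8 neighbours of Icosl 3 were called higher with LPS and 2 lower with continuous IL-10, the other being a region of Aire, the thymic autoimmune regulator, whose mean went from 2.44 ± 2.81 through 309 ± 104 to 32.2 ± 36.

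Around Cd80, 7 of 15 tested neighbours were called higher with LPS, where 16.5% of all regions are, while Cd80 itself was not. At chr16:38424443-38427250, assigned to Pla1a, the signal was at 1 read in every untreated and continuous IL-10 library and averaged 153 ± 115 after LPS and 126 ± 90.3 with late IL-10. It was called higher with LPS (adjusted p = 0.00083) and lower with continuous IL-10 (adjusted p = 0.00847), with no fold given because one side is at the lowest value. Around Cd274 and Pdcd1lg2, 0 of 7 neighbours were called in limma between either IL-10 group and LPS. Few such calls would be met at the shares of all regions, 6.52% with continuous and 3.53% with late IL-10. Near Cd86, 0 of 8 tested neighbours were called in the same comparisons, and the Ildr1 region chr16:36700353-36726000 was higher with late than with continuous IL-10 by 2.43 (adjusted p = 0.0191).

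Related genes were counted from fixed lists, which were not tested as sets. The counts below are read beside the shares of all genes called in limma. These were 14.2% higher and 13.3% lower with LPS, and 2.59% and 3.17% with continuous IL-10. They were 3.19% and 0.26% with late IL-10, and 1.88% and 0.668% between late and continuous IL-10. With the block, 43.5% of all genes were called with LPS, 17.6% with continuous and 9.73% with late IL-10. Of 9 further B7 and butyrophilin-type genes 6 had regions, and 0 were called higher and 2 lower with LPS. These were Ildr2, which was near the lowest value after LPS (2.74 ± 1.6 against 915 ± 191, adjusted p = 0.000181), and Vsir, which encodes the checkpoint protein VISTA (-2.81, adjusted p = 0.000247); both were higher with continuous IL-10 than with LPS, Vsir by 2.01 (adjusted p = 0.0112) and Ildr2 at 104 ± 68.6 (adjusted p = 0.0272, called in 2 of the 6 fits that leave out 1 library). Vsir's regions also overlap Cdh23. With late IL-10, Btnl2 was lower (change -1.17, adjusted p = 0.0446, called in 2 of 6 such fits). The list's median change was -0.68 with LPS and -0.34 with continuous IL-10, against -0.11 and 0.03 over all genes.

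Of 11 co-stimulators of the TNF family 8 were tested. With LPS 2 were called higher, Tnfsf4, the ligand of OX40 (6.87, adjusted p = 0.000544), and Tnfsf9, the ligand of 4-1BB (2.99, adjusted p = 7.72e-06), and 1 lower, Tnfsf14, which encodes LIGHT (-1.97, adjusted p = 0.00126). With continuous IL-10 0 of 8 were called in limma, and 1 higher and 4 lower with the block. Late IL-10 was accompanied by a rise of Tnfsf14 of 2.01 (adjusted p = 0.00569), from 219.7 ± 70.8 to 872 ± 170.4. The list's median was 1.3, -0.73 and 0.40 in these 3 comparisons.

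Among 14 other checkpoint and adhesion genes, which include receptors and the enzyme gene Ido1, 12 were tested, and with LPS 3 were higher and 2 lower. Pvr, a ligand of TIGIT, rose by 1.89 (adjusted p = 0.00180), Icam1, the integrin ligand, by 1.38 (0.00333), and Lgals3, a galectin, fell by 2.18 (adjusted p = 0.000282). Continuous IL-10 was accompanied by higher Nectin3 (1.68, adjusted p = 0.0272, called in 2 of 6 fits without 1 library) and lower Icam1 (-1.07, adjusted p = 0.0469), whose region also overlaps Icam4, Icam5 and Mrpl4; the Icam1 call was lost on leaving out any of the 6 libraries. Late IL-10 gave 0 called of 12 in limma and 1 with the block.

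The list of 6 receptor genes had 5 with regions in these cells. With LPS Btla was higher (4.81, adjusted p = 0.0308, called in 2 of 6 fits without 1 library) and Cd28 (-2.57, adjusted p = 0.00991) and Ctla4 (-1.92, adjusted p = 0.0234, in 3 of 6) were lower. Pdcd1, which encodes PD-1, was lower with continuous IL-10 than with LPS (-1.83, adjusted p = 0.0164), at 129 ± 64.2 against 437 ± 114, and higher with late than with continuous IL-10 (1.6, adjusted p = 0.0477); each Pdcd1 call was kept in 2 of 6 such fits. Among the T cell markers Cd3e was at the floor in untreated cells, Cd3g, Cd8a and Trac had no region, and 3 were called higher with LPS. Of 8 B cell markers 4 had regions, and with LPS 0 were called in limma and 2 with the block, 1 higher and 1 lower. Any part of other cells in these receptor values was not tested.

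Of 15 genes of CD40 signalling, 9 were called higher and 1 lower with LPS, with a median of 1.85 against -0.11 over all genes. Traf1, a TRAF adaptor, rose by 2.90 (adjusted p = 0.000366), and Tnfaip3, the A20 feedback inhibitor of NF-kB, by 2.84 (adjusted p = 0.00278). Map3k14, the kinase NIK of the non-canonical branch, was lower (change -2.20, adjusted p = 0.000579). With IL-10, Map3k8, the kinase TPL2, was the called gene of the list, higher by 1.34 with continuous (adjusted p = 0.0154, called in 3 of 6 fits without 1 library) and by 1.68 under late addition (adjusted p = 0.00401, in 6 of 6).

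Of 16 genes of interferon and JAK-STAT signalling, which is known to drive PD-L1, 9 were higher and 3 lower with LPS. Socs1 rose by 4.12 (adjusted p = 8.89e-05) and Jak2, which lies near Cd274, by 3.75 (0.000127). Continuous IL-10 gave 3 lower and 0 higher: Tyk2 (-1.89, adjusted p = 0.000813), Stat2 (-1.68, adjusted p = 0.00667) and Irf1 (-1.10, adjusted p = 0.0125, called in 5 of 6 fits without 1 library). Late IL-10 gave 1 higher, Jak1 (1.5, adjusted p = 0.00205). Between late and continuous IL-10 3 genes were higher with late IL-10 and 1 was lower. Jak1 was higher by 1.38 (adjusted p = 0.0153, called in 3 of 6 such fits) and Ifngr1 lower (change -1.11, adjusted p = 0.0480, in 1 of 6). Tyk2 and Stat2 were higher by 1.14 (adjusted p = 0.0294, called in 1 of 6 such fits) and 1.65 (0.0192, in 2 of 6).

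For each member the 3 tested genes with the most similar signal over the 12 libraries were found by Pearson's r, as a description of libraries that share groups and depth. For Cd40 these were Cxcl10 (0.994), Art3 (0.993), which shares regions with Cxcl10, and Ccnd2 (0.990). For Cd80 they were Ssbp2, N4bp2l2 and Pld4 (0.950 to 0.959), and for Cd86 Ptpn13, Gm12185 and Hk3 (0.973 to 0.984). Cd274 was most like F10, F7 and Mcf2l (0.978 to 0.983). These lie on chromosome 8 with nearly equal group means (3512, 3463 and 3537 after LPS), so they may not be separate likenesses. Pdcd1lg2 was most like Baz2b, Marchf1 and Map3k8 (0.940 to 0.951). For Icosl they were Rarg, Otud5 and Fem1b (0.934 to 0.949). Among the members themselves r was highest for Cd274 and Pdcd1lg2, which share a region (0.773), followed by Cd40 and Cd274 (0.754). It was lowest for Cd80 and Cd274 (-0.841). Cd40 and Cd80 (-0.711), Icosl and Pdcd1lg2 (-0.709) and Cd80 and Pdcd1lg2 (-0.704) came next.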

How the data were processed

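The authors deposited 1 table of H3K27ac signal over consensus regions on mm10, with a column for each of 12 ChIP libraries; the input library was not used here. The submitters' processing notes name Trim Galore, Bowtie2, MACS2 and DiffBind, without versions or roles, and the labels do not say if input was subtracted. The deposited signal is whole reads times 1 factor per library, with a lowest value of 1 read: 100% of values came out whole within 0.0001, so reads could be recovered. Values per gene are sums over the regions assigned to it (27528 regions overlap a gene, 10314 went to the nearest protein-coding gene within 100 kb and 2849 to none), with RefSeq gene positions of GRCm38.p6.

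Tests used limma 3.58.1 (R 4.3.3; mean-variance trend, robust) on log2(signal + 1), group as the only term, for features with a mean above the 10th percentile, with Benjamini-Hochberg adjustment over all of them and calls at 0.05. The fit was tested on simulated reads for LPS against untreated before use. Alternatives were a replicate block, a pseudocount of 10, no filter, median centring, quantile normalization, edgeR 4.0.16 (quasi-likelihood, TMM) on recovered reads, the 2 groups alone, each library left out, and, added after seeing the data, replicates 1 and 2 only and regions of 1 gene only. Limits of counting error apply to the low regions, where 1 to 3 reads cannot be told from none. P-values measure the spread between libraries; the labels number replicates without tying a number to a pool.

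The block value is printed, where it changes a call, for comparisons whose same-numbered libraries all correlated above 0.1 in gene-level deviations from group means. These were LPS with untreated (0.281 to 0.636) and LPS with continuous IL-10 (0.174 to 0.678). LPS with late IL-10 (0.547 to 0.794) and late IL-10 with untreated (0.164 to 0.483) also qualified. Unlike numbers could correlate more: LPS replicate 2 had 0.494 with continuous replicate 1 and 0.174 with continuous replicate 2. Replicate 3 correlated negatively with replicates 1 and 2 of the other groups and was the deepest library of each group. A pairing by number is therefore not established.

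The members, gene lists and tests were chosen with earlier results of these data known. All 6 members and all their regions are described; of each list at most 4 called genes per comparison with the largest change are named; and for each member the 3 genes with the highest correlation.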

Additional observations from a re-analysis of the deposited data

Results flagged for a closer look

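Late and continuous IL-10 were both compared with LPS alone, and the difference between them was tested directly. It passed the threshold for the Cd40 sum (1.68, limma adjusted p = 0.0242), for the Cd40 region chr2:165040428-165063340 (1.68, adjusted p = 0.0240) and for the Cd86 region chr16:36662199-36675855 (5.80, adjusted p = 0.0271). The Cd40 sum kept its call in 1 of 6 fits that leave out 1 library, and lost it with edgeR (0.0878), median centring (0.103), quantile normalization (0.0795) and the 2 groups fitted alone (0.0624). The Cd40 region kept its call in 1 of 6 such fits and in edgeR (0.0370), and lost it with the 2 groups alone (0.0515). The Cd86 region kept its call in 2 of 6, and lost it with edgeR (0.101) and the 2 groups alone (0.0732). In each of the 3 cases every late library lay above every continuous IL-10 library. No group has 4 or more libraries, so single libraries that stand apart, such as replicate 3 of Cd86 after LPS, could not be tested as outliers.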

How the results depend on the processing

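With the replicate number as a block, the count of genes called rose to 3 for late IL-10 against LPS, where 9.73% of all genes are called. It rose to 5 for late IL-10 against untreated, where 47.1% are. The count was 3 for late against continuous IL-10, whose lowest same-number correlation was 0.0626 over genes and 0.149 over regions. No share of all genes or regions with the block is given for that comparison. Regions rose to 4 for late IL-10 against LPS, where 8.09% of all regions are called, and to 6 for late against continuous IL-10. EdgeR on recovered reads called 1, 1 and 0 genes for continuous IL-10 against LPS, late IL-10 against LPS and late against continuous, and 3, 0 and 1 regions. Median centring called 1, 1 and 0 genes. Fitting only the 2 groups compared called 0 genes for late against continuous and 2, 0 and 0 regions. Quantile normalization called 1 and 0 genes in the comparisons with late addition, and 0 regions for late IL-10 against LPS. Replicates 1 and 2 only, added after seeing the data, called 1, 3 and 5 genes for late IL-10 against LPS, continuous IL-10 and untreated, and 4 regions for late against continuous. For the settings other than the block no share of all features is given, so these counts are not read against a background.

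Leaving out 1 library gave 1 to 4 genes for LPS against untreated, 1 to 4 for continuous IL-10 against LPS, 2 to 3 for continuous IL-10 against untreated, 0 to 1 for late IL-10 against LPS, 2 to 5 for late IL-10 against untreated and 0 to 2 for late against continuous. Regions ranged over 3 to 6, 1 to 6, 0 to 2 and 0 to 3 in the LPS, continuous, late and late-against-continuous comparisons. The shares of all features in these fits are not given either.

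Directions turned in small changes that were not called. For LPS against untreated, Pdcd1lg2 became 0.0012 with edgeR and 0.0057 with replicates 1 and 2. The Cd86 region at 36636002 became 0.25 with edgeR, 0.20 with centring, 0.025 with a pseudocount of 10, 0.17 with quantile normalization and 0.44 with replicates 1 and 2, and the Pdcd1lg2 region at 29434890 became 0.079 with replicates 1 and 2. For continuous IL-10 against LPS, edgeR gave -0.12 for the Cd86 region at 36626042, -0.034 for the Cd80 region at 38474620 and -0.14 for the Cd40 region at 165069937; replicates 1 and 2 gave -0.071 at 36626042, quantile normalization 0.034 at 29360251, and regions of 1 gene 0.042 for Cd80. For late IL-10 against LPS, centring gave 0.069 for Cd40 and 0.063 for Cd86, and quantile normalization 0.030 for Cd86. The Cd86 region at 36653904 gave -0.44 with edgeR, -0.00283 with a pseudocount of 10, -0.0026 with quantile normalization and -0.50 with replicates 1 and 2, and that at 36595959 gave -0.016 with edgeR and -0.039 with replicates 1 and 2. Replicates 1 and 2 also gave 0.12 at 38474620, -0.037 at 29434890 and -0.023 at 165069937. For late against continuous, quantile normalization gave -0.11 at 36636002 and -0.039 in the shared region, and replicates 1 and 2 gave -0.37 at 165069937.

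Without 1 library, LPS against untreated ranged over -0.49 to 0.086 for Pdcd1lg2, -0.70 to 0.72 at 36636002, -1.15 to 1.3 at 36639914, -0.087 to 0.35 at 38451223, -0.16 to 0.54 at 36626042, -0.55 to 0.067 at 29434890 and -0.57 to 0.026 at 29457433. Continuous IL-10 against LPS ranged over -1.11 to 0.31 at 36636002, -0.11 to 0.20 at 38474620, -0.56 to 1.12 at 165069937, -0.575 to 0.25 at 29360251 and -0.33 to 0.37 at 36626042. Late IL-10 against LPS ranged over -0.36 to 0.20 for Cd40, -0.86 to 0.60 for Cd86, -0.47 to 0.23 at 36626042, -0.96 to 0.50 at 36636002, -2.14 to 0.77 at 36639914, -0.94 to 0.63 at 36662199, -0.37 to 0.21 at 165040428, -0.93 to 1.3 at 165069937, -0.85 to 0.94 at 36595959, -1.05 to 1.00 at 36653904 and -0.062 to 0.77 at 29360251. Late against continuous ranged over -0.40 to 0.11 at 36626042, -0.47 to 0.83 at 36636002, -1.14 to 0.95 at 165069937 and -0.0012 to 2.39 at 36639914, and late IL-10 against untreated over -0.047 to 0.75 for Icosl. The cause of these changes was not tested. Over the settings other than leaving out 1 library, 751 single values kept direction and side of the threshold, 51 gained a call, 35 lost one and 29 turned direction. Median centring moved the median of all regions by 0.25 for LPS against untreated. Regions at 1 to 3 reads limit what depth can show.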
